A study of Mus musculus with 1 sample.

Results

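Imprinted genes are transcribed mainly from the copy inherited from 1 parent, because methylation marks set in the egg or sperm silence the other copy. Many of them act on growth before and after birth: *Igf2*, *Dlk1*, *Peg3*, *Mest* and *Plagl1* are read from the paternal copy, *H19*, *Cdkn1c*, *Meg3* and *Rian* from the maternal copy, and *Grb10* from the maternal copy in most tissues and the paternal copy in neurons. In the adrenal gland *Igf2* is abundant in the fetal organ and in cortical carcinoma, *Dlk1* is known from chromaffin cells, and loss of human *CDKN1C* is linked to overgrowth of the cortex. The counts used here do not separate the parental copies, so each value is the sum of both.

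These 10 imprinted genes were taken by symbol from the 32285 genes listed in a single-cell RNA sequencing library, and all 10 were found, each in 1 row. The library was made from the adrenal medullae of mice labelled wild type at postnatal day 15, from colonies that the methods describe as mixed and crossed back to CD1, with 10 adrenals of 5 mice of mixed sex pooled and most of the cortex removed by hand. Droplet-based sequencing counts transcripts by unique molecular identifiers (UMIs) read at the 3′ end. Only 1 library was analysed here, with no replicate, hence no comparison below was tested against the spread between animals, and each interval is an exact 95% interval for counting error only.

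From an aliquot of 10000 viable cells the files hold 11214 barcodes, none repeated, with 500 to 33809 UMIs each. Of these, 10139 passed the filter of 500 to 5000 genes and at most 20% mitochondrial UMIs, with a median of 3567 UMIs, and 9366 fell into 13 named cell classes. The other 773 cells lay in clusters with markers of several cell types or, for 43 cells, in a cluster led by *Ccl5*, *Gzma* and *Nkg7* with too few markers of any list for a name, and Scrublet called 64.7% of them doublets, against 1.80% of the named cells. Levels are given as CPM, the UMIs of a class scaled to a class total of 1000000. The label of adrenal medulla holds only in part. Chromaffin markers (*Chga*, *Th*, *Dbh* and others) defined 1669 adrenaline, 390 noradrenaline, 134 cycling and 414 transitioning-like cells, the last with glial markers as well. Glial markers without chromaffin ones defined 179 sustentacular-like cells, in which fibroblast markers were also at 2276 CPM, beside 5054 CPM of the glial list. Cortical markers (*Cyp11a1*, *Star* and others) defined 3715 cells: 755 outer cortex-like cells, 907 fasciculata-like cells high in *Cyp11b1*, 1693 X-zone-like cells high in *Akr1c18*, and 360 cycling cells. The rest were 1750 endothelial-like, 400 cycling endothelial-like, 626 immune-like and 89 fibroblast-like cells. The outer cortex-like cells were named by *Wnt4*, *Dab2* and *Fdx1*, although *Cyp11b1* was also at 2354 CPM there. Their list also held *Cyp11b2*, *Hsd3b6*, *Agtr1b* and *Shh*, the last at 22.9 CPM, and was checked before the fasciculata list. The fibroblast-like class was named by *Col1a1*, *Col1a2*, *Col3a1* and *Col6a1* and also held RNA of other types: its summed endothelial markers were at 3644 CPM, its chromaffin markers at 3155 CPM and its fibroblast markers at 2790 CPM. Median depth ran from 1149 UMIs in sustentacular-like to 8430 UMIs in cycling cortex-like cells. Shares split by another gene are of cells with at least 1000 UMIs, each reduced at random to 1000 UMIs and called thinned below. Other shares are of unthinned cells unless said otherwise, and they depend on depth. Levels of different genes are not compared with each other.

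The genes lie in several places of the mouse genome (mm10, positions from GENCODE). *Dlk1* (chr12:109452823-109463336, plus strand), the non-coding *Meg3* (chr12:109541001-109571726, plus strand) and *Rian* (chr12:109603940-109661716, plus strand) form the *Dlk1* domain. On the minus strand of chromosome 7 lie *Igf2* (chr7:142650766-142666816), the non-coding *H19* (chr7:142575529-142578143) and *Cdkn1c* (chr7:143458339-143461050), and far from them *Peg3* (chr7:6703892-6730431). *Mest* lies at chr6:30723547-30748465 on the plus strand, *Plagl1* at chr10:13060504-13131694 on the plus strand and *Grb10* at chr11:11930508-12038683 on the minus strand. No other gene listed in the library shared exon bases with any of the 10 on the same strand.

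RefSeq promoter windows (GRCm38.p6) were at hand for 8 of the 10 genes. The 250 bases before the start are shown for *Dlk1* and *Meg3*, since the levels of these neighbours parted in the cortex below, and for *Mest*, whose window held the most matches to the motif searched, as did a window shifted from it by a few bases. No GENCODE exon overlaps these 3 windows. Capitals mark TGCCGC on either strand (GCGGCA when read from the other strand), the core bound by the imprinting factor ZFP57 when methylated, and TGACGTCA, the palindromic cyclic AMP response element, searched after the sequences were seen.
*Dlk1*, chr12:109452573-109452822, plus strand: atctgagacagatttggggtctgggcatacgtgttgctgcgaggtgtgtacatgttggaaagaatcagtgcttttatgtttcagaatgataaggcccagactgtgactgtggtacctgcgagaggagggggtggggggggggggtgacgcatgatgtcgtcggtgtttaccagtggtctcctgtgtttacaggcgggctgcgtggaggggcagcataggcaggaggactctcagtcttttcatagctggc
*Meg3*, chr12:109540746-109540995, plus strand: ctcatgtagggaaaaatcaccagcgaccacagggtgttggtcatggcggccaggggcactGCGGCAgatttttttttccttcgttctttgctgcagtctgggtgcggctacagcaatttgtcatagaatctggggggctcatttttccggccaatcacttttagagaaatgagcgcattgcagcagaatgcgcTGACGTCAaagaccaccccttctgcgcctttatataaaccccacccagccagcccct
*Mest*, chr6:30737800-30738049, plus strand: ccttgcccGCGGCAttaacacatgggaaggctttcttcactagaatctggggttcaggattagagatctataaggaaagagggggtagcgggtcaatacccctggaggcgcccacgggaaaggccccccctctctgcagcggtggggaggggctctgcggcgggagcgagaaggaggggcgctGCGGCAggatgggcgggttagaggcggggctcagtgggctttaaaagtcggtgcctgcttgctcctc
TGCCGC stood once in the *Meg3* window, 2 times in the *Mest* window and nowhere in the *Dlk1* window, and 8.68% of the 32851 windows of this length in the table hold it. Over all windows of the 8 genes, 4 of 15 held it, those of *Meg3*, *Plagl1* and, in overlapping windows, *Mest*. TGACGTCA stood in the *Meg3* window and in that of *Peg3*, and in 1.55% of all windows. A match is a run of letters and was not tested as a site.

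Chromaffin cells held the highest levels of *Dlk1*, *Meg3*, *Rian* and *Peg3*, fasciculata-like and outer cortex-like cells that of *Cdkn1c*, endothelial cells that of *Grb10*, and sustentacular-like cells that of *Mest*. *Igf2*, *H19* and *Plagl1* were sparse in every class. Chromaffin, transitioning-like and cycling chromaffin cells together held 27.5% of the UMIs of the named cells but 98.5% of those of *Dlk1*, 94.6% of those of *Meg3*, 90.7% of those of *Rian* and 90.0% of those of *Peg3*. Cortex-like cells held 97.4% of the *Cdkn1c* UMIs. The plot of levels by class shows these patterns side by side.

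**Figure D1:**
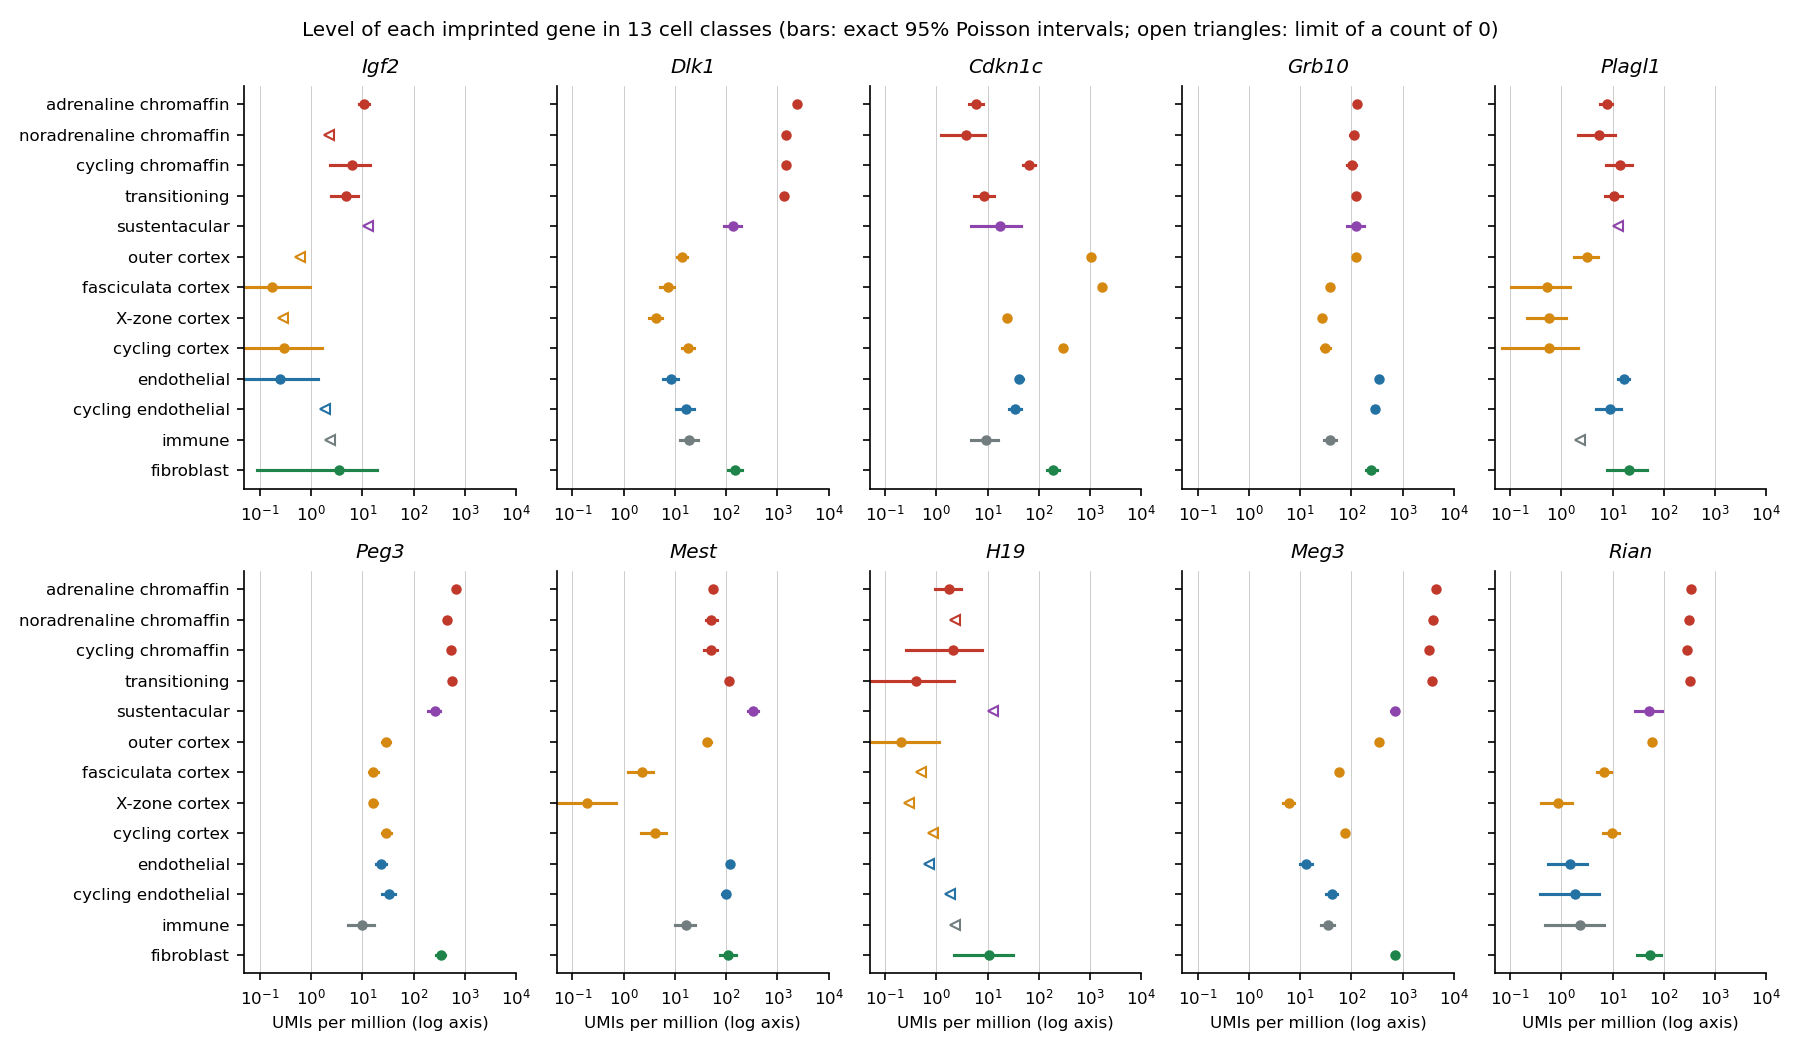
Level of each of the 10 genes in the 13 cell classes, in CPM on a log axis; points are levels from summed UMIs, bars exact 95% Poisson intervals, and open triangles the limit that a count of 0 allows (3 counts of the class total). *Dlk1* stood at 1338 to 2380.2 CPM in the 4 chromaffin classes and at no more than 19.1 CPM in cortical, endothelial and immune-like cells, whereas *Cdkn1c* stood at 1039 and 1711 CPM in outer cortex-like and fasciculata-like cells.

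*Dlk1* encodes a membrane protein with EGF-like repeats that is related to the Notch ligands and is shed as a soluble factor. It was at 2380.2 CPM (2345 to 2416) in adrenaline cells, with a UMI in 99.1% of them. Cycling chromaffin-like cells had 1453 CPM (1377 to 1532), noradrenaline cells 1438 CPM (1374 to 1505) and transitioning-like cells 1338 CPM (1293 to 1384). The adrenaline class thus lay above the other 3, of which cycling and noradrenaline cells did not differ beyond counting error. Scaled to the chromaffin markers instead, *Dlk1* stood at 2.89 UMIs per 100 UMIs of the chromaffin list in adrenaline, 2.98 in cycling, 2.99 in transitioning-like and 1.92 in noradrenaline cells, so that only the noradrenaline cells then lay lower. Scrublet called 16 of the 134 cycling chromaffin-like cells doublets (11.9%), the highest share of any named class. Levels of that class include these cells unless said otherwise. Sustentacular-like cells had 134 CPM (91.1 to 190.4), from 31 UMIs in 14 of 179 cells, and fibroblast-like cells 151 CPM (109 to 204) in 11 of 89 cells. In cortical, endothelial and immune-like classes the level was 4.22 to 19.1 CPM. Immune-like cells, taken as a class that should lack these genes, had a *Dlk1* UMI in 2.72% of cells at a median of 1683 UMIs, so low shares of that size were read as background. For *Meg3* that share was 3.04%, for *Grb10* 4.63%, for *Cdkn1c* 1.76%, for *Mest* 2.56%, for *Peg3* 1.28% and for *Rian* 0.479%. Scrublet called 7.51% of the immune-like cells doublets, against 1.80% of all named cells, and the part of doublets in these shares was not tested. The endothelial list was at 773 CPM in immune-like cells, against 17.6 CPM in X-zone-like cells. *Mest* was at 16.1 CPM in immune-like cells but 2.23 CPM in fasciculata-like and 0.192 CPM in X-zone-like cells. The immune-like value of *Mest* is therefore not a background common to all classes, and the part of endothelial RNA in it was not tested. In the sustentacular-like, fibroblast-like, cortical, endothelial and immune-like classes, *Dlk1* per 100 chromaffin-list UMIs was 3.33 to 5.26.

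*Igf2*, the fetal insulin-like growth factor, was barely present at this age. It gave 102 UMIs in the named cells, of which 80 were in 67 adrenaline cells (10.9 CPM, 8.62 to 13.5), 12 in transitioning-like cells (4.73 CPM) and 6 in cycling chromaffin-like cells (6.34 CPM). Noradrenaline cells had none in 390 cells, which allows up to 2.28 CPM, so the level was at least 4.78-fold lower than in adrenaline cells at this limit of 3 counts, while the 95% interval of the ratio reached 0.264. The difference was smaller, with a ratio of 0.597 (0.372 to 0.939), when cells were assigned by their own marker UMIs and not by cluster. That naming put 1078 cells in the noradrenaline group, so it held cells from outside the noradrenaline class and cannot decide the question. *Igf2* was also at 0 in sustentacular-like cells, but their 179 shallow cells allow up to 12.98 CPM, more than the chromaffin level, so a difference was not detectable at this depth. Over 3715 cortex-like cells there were 2 *Igf2* UMIs. *H19*, the non-coding RNA beside *Igf2*, gave 20 UMIs in all: 13 in adrenaline cells, 3 in fibroblast-like cells, 2 in cycling chromaffin-like cells and 1 each in transitioning-like and outer cortex-like cells. It was under the minimum of 50 UMIs for every comparison.

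Within the *Dlk1* domain, the non-coding RNAs were high in the same 4 chromaffin classes as *Dlk1*, though not in a fixed ratio to it, and parted from it in the cortex. *Meg3* was at 4457 CPM (4409 to 4506) in adrenaline, 3930.1 CPM in noradrenaline, 3763 CPM in transitioning-like and 3216 CPM in cycling chromaffin-like cells. *Rian*, a host of small nucleolar RNAs, was at 342 CPM in adrenaline, 320.3 CPM in transitioning-like, 302 CPM in noradrenaline and 282 CPM in cycling cells. No neighbours in that order differed beyond counting error, although noradrenaline (ratio 0.884, 0.794 to 0.983) and cycling cells (0.826, 0.725 to 0.937) were below adrenaline cells. Outside the medulla the highest cortical levels were in outer cortex-like cells, with 346 CPM of *Meg3* (329.5 to 363) in 54.6% of cells and 59.2 CPM of *Rian* (52.6 to 66.5) in 25.6% of cells. *Meg3* was 57.3-fold higher there than in X-zone-like cells (44.5 to 74.9) and 6.02-fold higher than in fasciculata-like cells (5.35 to 6.79). *Dlk1* in the same outer cells, 13.8 CPM, was not above the immune-like level of 19.1 CPM (ratio 0.723, 0.450 to 1.19). Chromaffin markers were at 400.4 CPM in the outer cortex-like class. Without its 29 cells with 5 or more chromaffin-list UMIs, a choice made after seeing the data, that list fell to 76.1 CPM and *Dlk1* to 3.65 CPM (2.13 to 5.85), while *Meg3* was at 311 CPM (295 to 328) and *Rian* at 57.6 CPM (50.9 to 64.9).

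The number of *Meg3* UMIs per *Dlk1* UMI was 1.87 in adrenaline cells (1.84 to 1.91), 2.73 in noradrenaline cells and 2.81 in transitioning-like cells. It was 25.01 in outer cortex-like cells (19.6 to 32.4) and 7.98 in fasciculata-like cells, but 1.43 in X-zone-like, 1.59 in endothelial-like and 1.80 in immune-like cells, each with an interval that includes the adrenaline ratio. Set against the chromaffin marker list, *Meg3* gave 5.40 UMIs per 100 in adrenaline cells, 6.06 in X-zone-like cells and 86.4 in outer cortex-like cells. *Rian* per 100 *Meg3* UMIs was 7.66 in adrenaline cells (7.36 to 7.98) and 17.1 in outer cortex-like cells (15.1 to 19.4). Among outer cortex-like cells thinned to 1000 UMIs, *Meg3* was found in 37.3% of 279 cells with a UMI of *Wnt4*, a gene of the outer cortex that helped to name the class (31.6 to 43.2), and in 18.99% of 474 cells without one (15.6 to 22.8). In thinned adrenaline cells *Meg3* was found in 95.9% of cells with *Dlk1* and 95.6% of cells without it. Since nearly all these cells had *Meg3*, the split could not show whether the 2 genes go together. *Rian* was found in 26.8% of cells with *Dlk1* (24.5 to 29.1) and 35% without it (27.6 to 42.9), with overlapping intervals. It was found in 28.4% of cells with *Meg3* (26.2 to 30.7) and 7.35% of 68 cells without it (2.43 to 16.3).

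**Figure D2:**
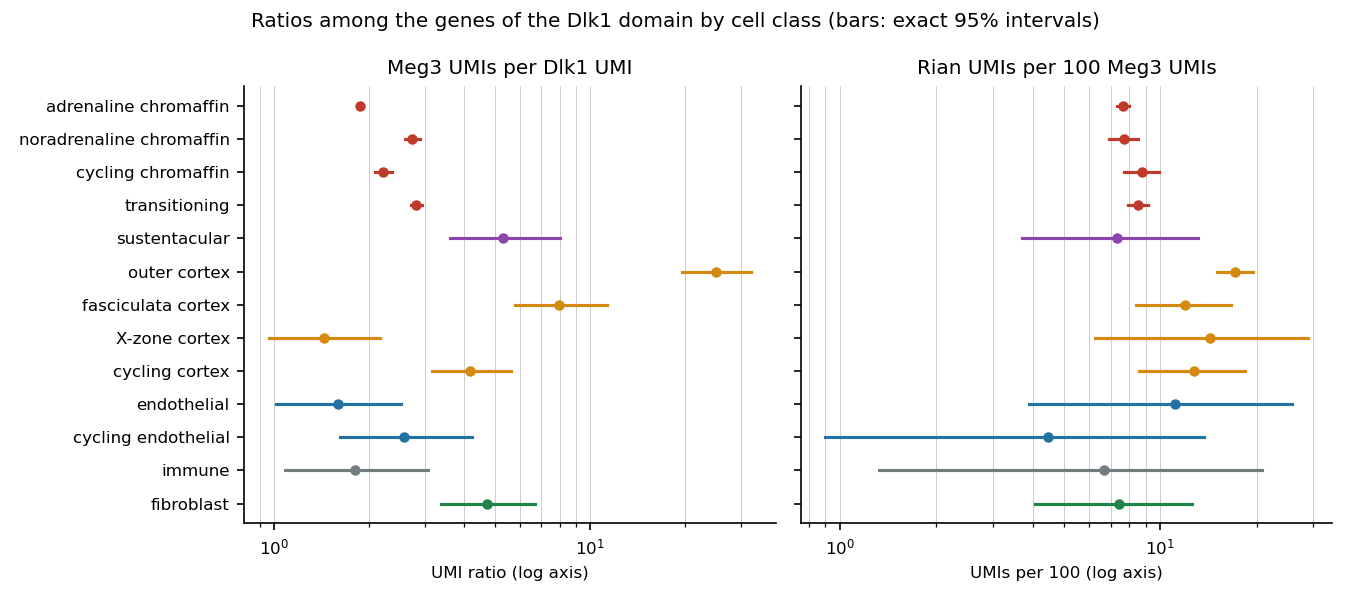
Ratios of UMIs among the genes of the *Dlk1* domain in each class, on log axes, with exact 95% intervals; the left panel gives *Meg3* UMIs per *Dlk1* UMI and the right panel *Rian* UMIs per 100 *Meg3* UMIs. Outer cortex-like cells stand apart at 25.01 on the left and lie at 17.1 on the right, against 1.87 and 7.66 in adrenaline cells.

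*Cdkn1c* encodes p57Kip2, an inhibitor of cyclin-dependent kinases that holds cells out of the cycle. It was highest in fasciculata-like cells, at 1711 CPM (1678 to 1745) in 90.9% of cells, and outer cortex-like cells, at 1039 CPM (1011 to 1069) in 87.2% of cells. X-zone-like cells, the inner cortex that regresses later in life, had 23.7 CPM (20.8 to 26.8) in 8.09% of cells. The level in fasciculata-like cells was 72.3-fold that of X-zone-like cells (63.7 to 82.3) and 1.65-fold that of outer cells. Cycling cortex-like cells lay between, at 294 CPM (276 to 312) in 36.4% of cells. In thinned cells the shares were 70.2% in fasciculata-like, 56.4% in outer cortex-like, 2.01% in X-zone-like and 15.8% in cycling cortex-like cells.

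The same split was seen within classes. Among thinned cycling cortex-like cells, *Cdkn1c* was found in 56.3% of 64 cells with a UMI of *Cyp11b1*, the enzyme of the last step of corticosterone synthesis (43.3 to 68.6), and in 7.10% of 296 cells without one (4.45 to 10.6). With *Akr1c18*, the X-zone marker, it was found in 3.20% of 219 cells (1.295 to 6.48), and without it in 35.5% of 141 cells (27.6 to 44.0). Fasciculata-like cells gave 75.1% with *Cyp11b1* and 23.3% without, and outer cortex-like cells 67.9% and 34.5%. Split by *Wnt4*, outer cortex-like cells gave 46.2% with it (40.3 to 52.3) and 62.45% without it (57.9 to 66.8). Fasciculata-like cells gave 75% with *Wnt4* (60.4 to 86.4) and 69.9% without it (66.7 to 73.0). Over the 13 classes, the gene whose log2(CPM + 10) profile was most like that of *Cdkn1c* was *Cyp11b1* (Pearson r = 0.975), followed by *Klhdc8a* (r = 0.967), among 11243 genes with at least 200 UMIs. The other imprinted genes described below were not among these candidates. All such profiles come from 1 library and share its depth and background.

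**Figure D3:**
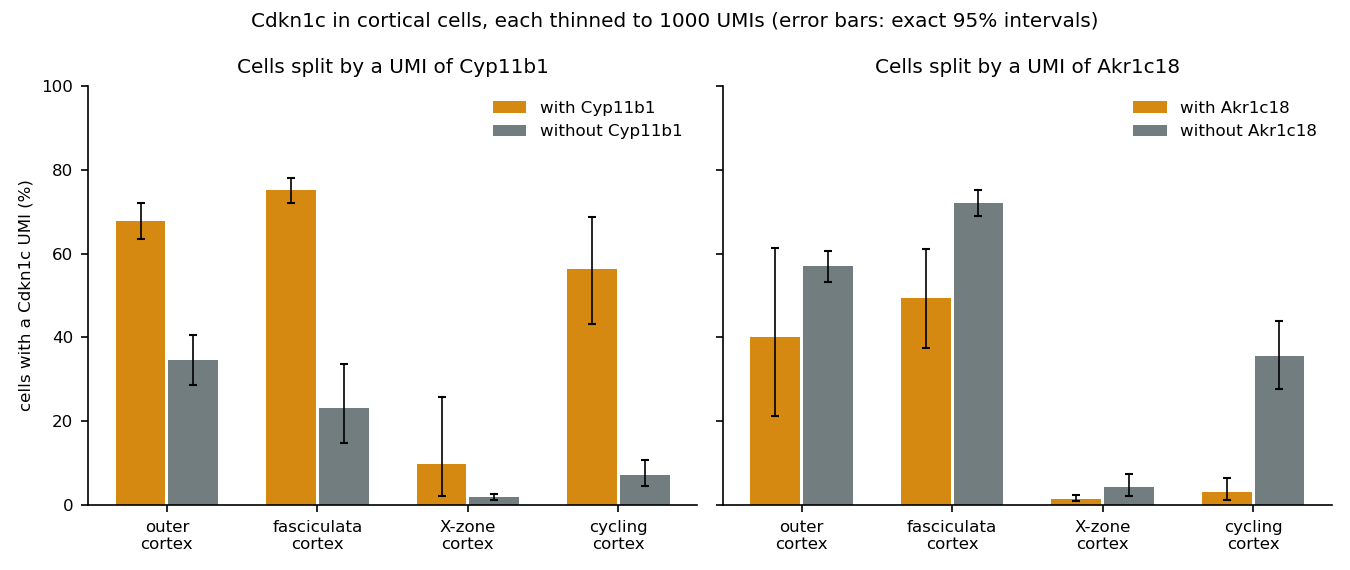
Share of cortical cells with a *Cdkn1c* UMI, each cell thinned to 1000 UMIs, split by a UMI of *Cyp11b1* (left) or *Akr1c18* (right); bars are shares in percent and error bars exact 95% intervals. In cycling cortex-like cells the share was 56.3% with *Cyp11b1* and 7.10% without, and 3.20% with *Akr1c18* and 35.5% without.

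In most medullary classes *Cdkn1c* was near the background of 9.19 CPM in immune-like cells, with 5.98 CPM in adrenaline, 3.795 CPM in noradrenaline, 8.68 CPM in transitioning-like and 17.3 CPM in sustentacular-like cells, the last from 4 UMIs. Cycling chromaffin-like cells had 64.5 CPM (49.3 to 82.8), 10.8-fold the adrenaline level, but cortical markers moved with it: their summed level was 1887 CPM there and 115 CPM in adrenaline cells. In the 92 cells of this class with under 5 UMIs of the cortical list, an alternative chosen after seeing the data, the list fell to 104 CPM and *Cdkn1c* to 11.8 CPM (4.74 to 24.3), against 6.02 CPM in adrenaline cells filtered likewise. With doublets left out, 118 cycling chromaffin-like cells had 35.96 CPM of *Cdkn1c* (24.1 to 51.6), and the cortical list was at 1090 CPM. Endothelial-like cells had 41.8 CPM and cycling endothelial-like cells 34.4 CPM, which did not differ beyond counting error. Fibroblast-like cells had 193 CPM (146 to 252) in 38.2% of cells, and cortical markers were at 1890.3 CPM in them. The part of cortical RNA in that level was not tested.

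*Grb10*, an adaptor that dampens signalling by the insulin and IGF1 receptors, was highest in endothelial cells, at 352 CPM (334 to 371) in non-cycling and 290.1 CPM (264 to 318) in cycling cells. Fibroblast-like cells followed with 246 CPM (192 to 311). Adrenaline, sustentacular-like, outer cortex-like, transitioning-like, noradrenaline and cycling chromaffin-like cells formed a level group from 101 to 126 CPM, in which no neighbours in the order differed beyond counting error, although the cycling cells at its lower end were below the adrenaline cells at its upper end (ratio 0.802, 0.643 to 0.991). Immune-like cells and the other 3 cortical classes lay at 27.2 to 39.0 CPM. *Plagl1*, a zinc finger transcription factor of the imprinted network, was sparse, with 16.3 CPM (12.6 to 20.7) in endothelial-like and 8.75 CPM (4.79 to 14.7) in cycling endothelial-like cells. Cycling chromaffin-like cells had 13.7 CPM (7.31 to 23.5), transitioning-like cells 10.65 CPM (7.02 to 15.5) and adrenaline cells 7.61 CPM (5.75 to 9.89). The 3 inner and cycling cortical classes had 0.515 to 0.579 CPM. Immune-like cells had no *Plagl1* UMI, which allows up to 2.30 CPM, and fibroblast-like cells had 21.1 CPM from 6 UMIs.

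*Peg3*, a zinc finger protein expressed widely in the nervous system, was at 661 CPM (643 to 680) in adrenaline, 554 CPM in transitioning-like, 543 CPM in cycling chromaffin-like and 441 CPM in noradrenaline cells. It was also found in fibroblast-like and sustentacular-like cells. Fibroblast-like cells had 337 CPM (273 to 412) in 52.8% of cells and sustentacular-like cells 255 CPM (194 to 329) in 25.1% of cells. In thinned cells these shares were 31.4% and 26.8%. Cortical and endothelial classes had 16.3 to 32.5 CPM and immune-like cells 9.95 CPM, which did not differ beyond counting error from the 16.3 CPM of fasciculata-like cells. *Mest*, an enzyme of the alpha/beta hydrolase fold found in growing mesodermal tissue, had its highest level in sustentacular-like cells, 333 CPM (263 to 416) in 30.7% of cells, 2.98-fold above transitioning-like cells (2.29 to 3.85). The transitioning-like level of 112 CPM (99.0 to 125) was in turn 2.05-fold that of adrenaline cells (1.75 to 2.39), so the level in these cells lay between those of sustentacular-like and adrenaline cells. The transitioning-like class was named by chromaffin and glial markers together, so no order of stages is read from this level. The study separated transitioning clusters of the noradrenaline and the adrenaline type, which are not separated here. *Pnmt* was at 2945 CPM in this class, against 190 CPM in noradrenaline and 11673 CPM in adrenaline cells. Endothelial-like cells had 118 CPM of *Mest* and fibroblast-like cells 109 CPM. Within the cortex *Mest* was at 43.1 CPM in outer cortex-like cells, 2.23 CPM in fasciculata-like and 0.192 CPM in X-zone-like cells, the last from 2 UMIs.

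The comparisons between classes counted a gene where its level was at least 2-fold apart, with at least 50 UMIs over both groups. The same rule over all genes gave the background. Against chromaffin cells, cortex-like cells had 1 of 9 such genes higher, *Cdkn1c* (117-fold, 88.7 to 159), and 8 lower, where 22.2% of 12595 genes were higher and 22% lower. *Dlk1* was 256-fold lower (223.5 to 294), *Meg3* 46.1-fold, *Peg3* 30.4-fold, *Rian* 22.3-fold, *Plagl1* 6.86-fold, *Mest* 5.58-fold and *Grb10* 2.52-fold. Cortical *Dlk1*, at 8.75 CPM, and chromaffin *Cdkn1c*, at 5.65 CPM, lay below the immune-like levels of 19.1 and 9.19 CPM. The size of the *Dlk1* and *Cdkn1c* folds thus depends on background RNA. *Igf2* rested on 2 cortical UMIs and had a ratio of 0.00883 (0.00105 to 0.0330). The median log2 ratio of the 9 was −4.48 and that of all genes tested 0.02.

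Within the cortex, 4 of 7 genes were higher in outer cortex-like cells than in the other cortical cells and none was lower, against 13.4% and 8.15% of 11147 genes. These were *Mest* (29.3-fold, 19.8 to 44.9), *Rian* (14.2-fold, 11.1 to 18.4), *Meg3* (10.4-fold, 9.48 to 11.4) and *Grb10* (3.98-fold, 3.55 to 4.46). The median log2 ratio was 1.99, and 0.09 over all genes. Endothelial markers were also higher in outer cortex-like cells, at 888 CPM against 31.2 CPM in fasciculata-like cells. In the 526 outer cells with under 5 endothelial-list UMIs, chosen after seeing the data, that list was at 51.9 CPM, *Meg3* at 459 CPM, *Rian* at 80.7 CPM, *Mest* at 38.7 CPM and *Grb10* at 94.2 CPM, and the same 4 genes passed the rule. Without the outer cells holding 5 or more chromaffin-list UMIs they passed it too. *Dlk1*, within 2-fold with all outer cells (log2 ratio 0.88), then had a log2 ratio of −1.04 and passed as lower. This filter removed chromaffin RNA from the outer cells alone, so no direction is read from it.

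Endothelial cells against all others had 3 of 9 genes higher and 6 lower, where 15.9% and 29.1% of 13710 genes were. The higher genes were *Grb10* (4.54-fold, 4.28 to 4.81), *Plagl1* (4.05-fold, 3.04 to 5.37) and *Mest* (3.73-fold, 3.38 to 4.11), and *Rian*, *Meg3* and *Dlk1* were 72.3-fold, 65.3-fold and 60.5-fold lower. At 1.58, 21.2 and 10.5 CPM, the endothelial levels of *Rian*, *Meg3* and *Dlk1* were below the immune-like ones of 2.30, 34.4 and 19.1 CPM. *Cdkn1c* was 10.8-fold and *Peg3* 8.10-fold lower, and *Igf2* rested on 1 endothelial UMI (ratio 0.0668, 0.00168 to 0.381). The other cells included the chromaffin classes, which held 98.5% of the *Dlk1*, 94.6% of the *Meg3* and 90.7% of the *Rian* UMIs. The folds for these 3 genes thus mostly describe chromaffin cells. X-zone-like cells had less than endothelial-like cells of *Dlk1* (4.22 against 8.27 CPM), *Meg3* (6.04 against 13.1 CPM) and *Cdkn1c* (23.7 against 41.8 CPM). The median log2 ratio was −3.43, and −0.15 over all genes. Fibroblast-like cells against all others had the same 3 genes higher, *Plagl1* 4.41-fold (1.60 to 9.77), *Mest* 2.69-fold (1.82 to 3.84) and *Grb10* 2.31-fold (1.80 to 2.92), with 1 gene lower, *Dlk1* (ratio 0.271), against 17% and 11.3% of genes. Since endothelial markers were high in the fibroblast-like class, the 50 of its cells with under 5 endothelial-list UMIs were also taken, in which the endothelial list fell to 472 CPM and the chromaffin list rose from 3155 to 7873 CPM. In them *Grb10* was at 161 CPM (log2 ratio 0.60) and *Dlk1* at 345 CPM (−0.69), and neither passed the rule any longer. *Mest* at 127 CPM and *Plagl1* at 34.5 CPM, from 3 UMIs, still did, and *Peg3* at 564 CPM (1.62) and *Cdkn1c* (−1.04) now did. The part of the chromaffin RNA in the *Dlk1* and *Peg3* values was not tested. Over all cells of the class *Dlk1* was called lower against a group that held the chromaffin classes. Its level of 151 CPM there was above the 4.22 to 19.1 CPM of cortical, endothelial and immune-like classes. The median log2 ratio over all cells of the class was 0.61, and 0.25 over all genes. This median is the value of *Igf2*, from 1 fibroblast-like UMI (ratio 1.53, 0.038 to 8.72), so no tendency is read from it.

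Sustentacular-like cells, the glia-like support cells of the medulla, had 2 of 9 genes higher than chromaffin cells and 4 lower. *Mest* was higher (6.16-fold, 4.78 to 7.86), and *Cdkn1c* was counted as higher on 4 UMIs with an interval that spans no change (3.06-fold, 0.803 to 8.36). *Dlk1* (16.7-fold), *Rian* (6.46-fold), *Meg3* (6.17-fold) and *Peg3* (2.46-fold) were lower. Over all genes 12.5% of 9913 were higher and 19.1% lower. *Grb10* had a ratio of 1.01 (0.674 to 1.46), and *Igf2* and *Plagl1*, both at 0 in these cells, could not be judged at this depth. The median log2 ratio of the 7 genes with UMIs in both groups was −1.30, and with the 2 others at their limits 0.02. Over all genes it was −0.13 and −0.10.

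Part of the sustentacular-like and fibroblast-like cells held chromaffin RNA, and *Dlk1* lay almost wholly in those. The 24 sustentacular-like cells with 5 or more chromaffin-list UMIs held 26 of the 31 *Dlk1* UMIs and 90 of the 164 *Meg3* UMIs, and the 12 such fibroblast-like cells held 42 of the 43 *Dlk1* UMIs. Without them, a choice made after seeing the data, *Dlk1* was at 26.4 CPM (8.58 to 61.7) in sustentacular-like and 4.27 CPM in fibroblast-like cells. *Meg3* fell from 709.6 to 391 CPM (307 to 491) in sustentacular-like cells, with a UMI in 34.8% of the 155 cells left, and from 709.7 to 414 CPM (336 to 505) in fibroblast-like cells, with a UMI in 48.1% of the 77 cells left. In the comparison of fibroblast-like with all other cells, *Meg3* (log2 ratio −1.55) and *Rian* (−2.22) then also passed as lower, beside *Dlk1* (−7.03). This filter removed chromaffin RNA from the fibroblast-like cells alone, so no direction is read from these filtered calls. *Mest* was at 349 CPM and *Peg3* at 222 CPM in the 155 sustentacular-like cells left, against 333 and 255 CPM in all. A plot of these levels shows that *Dlk1* dropped most.

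**Figure D4:**
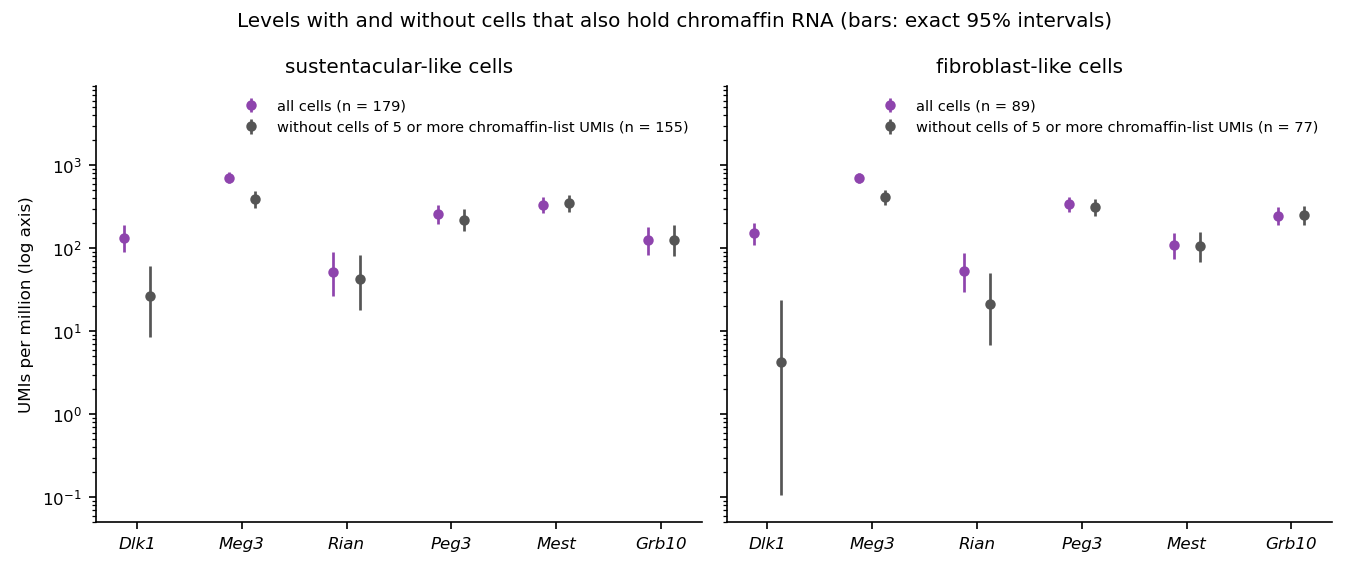
Levels of 6 genes in sustentacular-like (left) and fibroblast-like cells (right), in CPM on a log axis with exact 95% Poisson intervals, for all cells and without those that held 5 or more chromaffin-list UMIs. *Dlk1* went from 134 to 26.4 CPM and from 151 to 4.27 CPM, while *Mest* stayed at 333 and 349 CPM and at 109 and 107 CPM.

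Noradrenaline and adrenaline cells were within 2-fold of each other for 7 genes. Of 8 genes, none was 2-fold higher in noradrenaline cells and 1, *Igf2*, was lower, against 4.55% and 6.7% of 9713 genes. This call was lost when each cell was named by its own marker UMIs, which put 1078 cells in the noradrenaline group with 30 *Igf2* UMIs (6.78 CPM, against 11.4 CPM), and when cells were thinned, which left 0 and 13 UMIs. The own-marker group was larger than the 390 cells of the cluster and so held cells from outside it. Its cut was *Pnmt* at 10% of chromaffin-list UMIs, while adrenaline cells had 11673 CPM of *Pnmt* and 82505 CPM of the list. It therefore cannot decide the question, and thinning left too few UMIs to do so. *Dlk1* was lower by less than 2-fold (ratio 0.604, 0.576 to 0.634), as was *Peg3* (0.667, 0.611 to 0.727), while *Meg3* (0.882), *Rian* (0.884), *Grb10* (0.883) and *Mest* (0.947) were closer to the adrenaline level. The median log2 ratio was −0.35 with *Igf2* at its limit, and −0.18 for the 7 genes with UMIs in both groups. Over all genes it was 0.00 either way.

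**Figure D5:**
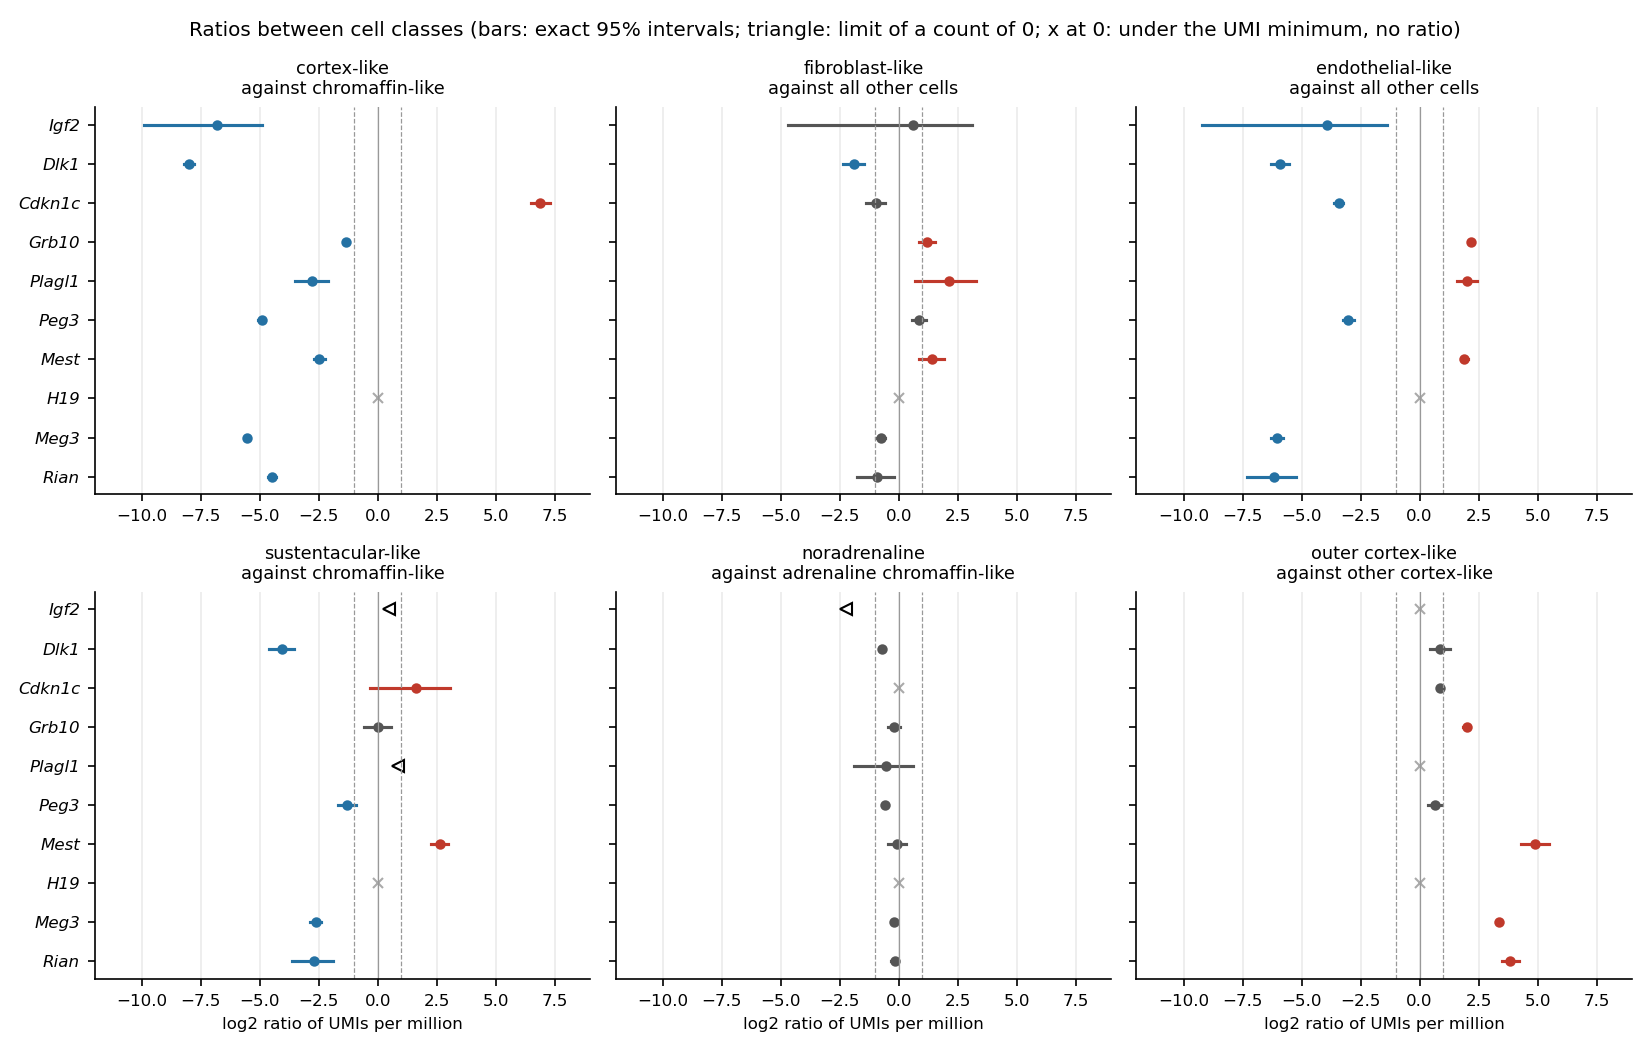
Log2 ratios of the 10 genes in the 6 comparisons, with exact 95% intervals; red points are at least 2-fold higher, blue points at least 2-fold lower, grey points within 2-fold, dashed lines mark 2-fold, triangles the limit of a count of 0, and crosses genes with too few UMIs for a ratio. *Cdkn1c* is the gene on the right for cortex-like cells at 117-fold, and *Mest* lies on the right in the endothelial, fibroblast, sustentacular and outer cortex panels.

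The genes with profiles most like the others over the 13 classes were, by Pearson r of log2(CPM + 10), *Th* (0.998) and *Chga* (0.997) for *Dlk1*, *Nlgn2* and *Chn1* (both 0.981) for *Peg3*, *Lrrn3* (0.985) and *Rian* (0.985) for *Meg3*, and *Lrrn3* (0.996) and *Atp1b1* (0.986) for *Rian*. For *Mest* they were *Ifit2* (0.959) and *Id3* (0.958), for *Plagl1* *Bace2* (0.929) and *Gm43696* (0.928), and for *Grb10* *Ro60* (0.953) and *Zfp652* (0.947). The candidates left out the other imprinted genes described below, so their likeness to the members is not given. The r values are descriptions over 13 points. Among the members, *Dlk1* had r = 0.954 with *Peg3*, 0.948 with *Rian* and 0.946 with *Meg3*, 0.227 with *Grb10* and −0.504 with *Cdkn1c*.

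Of 48 other imprinted genes, 32 had enough UMIs for the comparison of cortex with chromaffin cells, with 7 (21.9%) higher and 13 (40.6%) lower, where 22.2% and 22% of all genes were. In outer cortex-like cells against other cortical cells 8 of 28 (28.6%) were higher and none lower, against 13.4% and 8.15% of all genes. In endothelial cells 5 of 38 (13.2%) were higher and 21 (55.3%) lower, against 15.9% and 29.1%. In fibroblast-like cells 6 of 38 (15.8%) were higher and 7 (18.4%) lower, against 17% and 11.3%, and in sustentacular-like cells 5 of 29 (17.2%) and 11 (37.9%), against 12.5% and 19.1%. Of the 10 with the most UMIs, *Nnat*, a proteolipid of neuroendocrine cells, had the widest range between the chromaffin types, with 4160.1 CPM (4051 to 4272) in noradrenaline and 439 CPM (424 to 454) in adrenaline cells. *Zdbf2* went the same way, with 623 and 125 CPM, and the third of 3 genes higher in noradrenaline cells, of 28 (10.7%, against 4.55% of all genes), was *Blcap*, whose intron holds *Nnat* (44.0 and 20.8 CPM). None of the 28 was lower. *Ndn*, a gene of the Prader-Willi region, was at 378 CPM in adrenaline cells and, like *Meg3*, higher in outer cortex-like cells (215 CPM) than in fasciculata-like (39.8 CPM) or X-zone-like cells (4.41 CPM). *Nap1l5* was at 934 CPM in adrenaline and 5.78 CPM in outer cortex-like cells, and *Gnas*, the stimulatory G protein subunit, at 4251 and 1086 CPM. *Cd81* was at 416 CPM in adrenaline cells and 1732 CPM in fibroblast-like cells. *Ube3a* (97.2 to 267 CPM), *H13* (61.3 to 140.1 CPM), *Commd1* (59.7 to 114 CPM) and *Kcnq1ot1* (93.5 to 314 CPM) were present in all 13 classes.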

How the data were processed

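One 10x Genomics 3′ v3.1 library of adrenal medulla was used. Reads were mapped to mm10 and turned into UMI counts by the authors (Cell Ranger 4.0.0, per the submitters' processing notes), and the deposited matrix holds these raw counts, unnormalized, for barcodes of 500 UMIs and more. Cells were filtered and clustered as in the study (Seurat 5.3.0, R 4.3.3, 2000 variable features, 10 principal components, resolution 0.4, 1 thread), and medullary clusters were clustered again until no cluster met the naming rule below for another type. Names required 3 or more markers of a list, each seen in 50% or more of the cluster (25% for the sustentacular and cycling lists), and mixed clusters were left out. Doublets were not removed in the main analysis, and Scrublet (scanpy 1.11.5, expected rate 8%) called 669 of the 10139 cells, 6.60%. The 10 genes and all lists were chosen with earlier results of these data known.

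Levels were UMIs summed over the cells of a class and scaled to 1000000, with Poisson intervals, shares had Clopper-Pearson intervals and ratios conditional binomial intervals. A count of 0 was taken as allowing 3 counts, and a ratio against 0 was set at that limit. The ratio script was tested on simulated data. The genes named were all 10 members, the 2 genes most like each member with at least 200 UMIs and the 10 other imprinted genes with the most UMIs. The most-like genes were sought outside the list of other imprinted genes. Alternatives were resolutions of 0.2 and 0.8, 30 principal components, clustering without imprinted genes, a stricter cell filter (1000 genes or more, mitochondrial UMIs up to 10%), doublets removed, means over cells, thinning to 1000 UMIs, naming of each cell from its own markers, no UMI minimum, detection at 2 UMIs, and the filters on doubtful cells named in the text. Positions came from the GENCODE annotation of the same build. Python 3.11.15, numpy 2.4.6, scipy 1.17.1, pandas 2.3.3 and matplotlib 3.10.9 were used. The sorted cells and other experiments of the study were not analysed here.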

Additional observations from a re-analysis of the deposited data

How the results depend on the processing

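With 1 library, values rest on cells of 1 pool and no spread between animals is known. No paired analysis was possible because a single library was analysed here. The counts of genes at least 2-fold apart were recomputed 61 times over the alternatives, and 59 stayed within 1.5 times the main count. Both exceptions were the comparison of noradrenaline with adrenaline cells, where 1 gene, *Igf2*, became 0 with cells thinned to 1000 UMIs and 0 with each cell named from its own marker UMIs. Thinning left too few *Igf2* UMIs for a difference to be shown. Naming from own markers made a noradrenaline group of 1078 cells, against 390 by cluster, so it could not decide the question either. A count can hold while its genes change. In fibroblast-like cells, the endothelial filter dropped *Grb10* and *Dlk1* from the calls and added *Peg3* and *Cdkn1c*. The chromaffin filter added *Meg3* and *Rian* to the lower calls in these cells, a change that is not among the exceptions. Resolution 0.2 gave no fibroblast-like and no outer cortex-like class, and the stricter cell filter no fibroblast-like and no sustentacular-like class, so these comparisons had no value there. Of 481 log2 ratios of single genes, 364 stayed within the counting interval of the main value, 117 moved outside it and 0 changed direction where called. *Dlk1* in outer cortex-like against other cortical cells was not called in the main analysis (log2 ratio 0.88). Without the outer cells holding chromaffin RNA it passed as lower, and this is not among the changes counted. The largest move, 5.15, was *Dlk1* in fibroblast-like cells without those holding chromaffin RNA. Levels under about 10 CPM in classes of under 200 cells are limited by depth. Levels near those of immune-like cells cannot be told apart from RNA outside cells or RNA of doublets.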

Other observations

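Adrenaline cells fell into 3 clusters that differed in these genes and in depth. The 830 cells of the first cluster (median 2305 UMIs, led by *Pnmt* and *Cfap61*) had 2698 CPM of *Dlk1* (2627 to 2771), 436 CPM of *Peg3* (407 to 465) and 3838 CPM of *Meg3* (3753 to 3924). The 715 cells of the next cluster (median 5691 UMIs, led by *Olfm3* and *Sema5a*) had less *Dlk1*, 2231 CPM (2189 to 2273). They had more *Peg3*, 750.3 CPM (726 to 775), and *Meg3*, 4602 CPM (4542 to 4662). They held 65 of the 80 *Igf2* UMIs, a count that is not scaled to their greater depth. Scaled, *Igf2* was at 13.28 CPM (10.25 to 16.93) in them and 6.947 CPM (3.798 to 11.66) in the first cluster, with overlapping intervals. The 124 cells of the third cluster, led by the immediate-early genes *Atf3* and *Egr3*, had 134 CPM of *Mest* (102 to 173), against 45.2 and 51.1 CPM in the others, and 5671 CPM of *Meg3* (5453 to 5896).

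Non-cycling endothelial-like cells formed 2 clusters. *Grb10* was at 387 CPM (366 to 409) in 1024 cells led by *Cldn5* and *Ehd3*, and at 227 CPM (197 to 260.2) in 726 shallower cells led by *Ly6a* and *Ramp2*. *Plagl1* was at 13.4 CPM (9.68 to 18.0) and 26.8 CPM (17.2 to 39.9) in them, and *Mest* at 115 and 131 CPM.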
